A study of Homo sapiens with 3 samples.

Results

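Translation initiation and elongation factors are the proteins that bring messenger RNA, initiator tRNA and ribosome together and then move the ribosome along the message. Here they are the genes whose symbol begins with EIF1 to EIF6 or with EEF1 or EEF2, without the EIF2AK kinases, the EIF4EBP binding proteins and pseudogenes, measured by probe sets that name only that gene. The rule gave 94 of 22215 gene probe sets, for 45 genes, and 41 of these genes, among the 6745 genes compared, passed a filter on dim signal. The rule reads the symbols and uses no measured value.

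RH30 is an established cell line of alveolar rhabdomyosarcoma, a childhood tumour of the muscle lineage. Cells were left untreated, or were given 10 µM anti-MYCN PNA or 10 µM of a mutated form of it for 12 hours. A peptide nucleic acid, or PNA, carries the bases of DNA on a backbone of peptide bonds and can pair with nucleic acid. RNA of each condition went to 1 Affymetrix array, giving 3 arrays without replicates, and neither an error nor a test could be had. All cells were grown in the same medium with foetal bovine serum, and all values come from 1 line, with nothing stated on whether the cultures were independent. In the array called untreated the title and the treatment text say untreated whereas the source name says mutated PNA, and every direction between the controls rests on that label. Background is judged here by how far the 2 control arrays lie apart. Signals are given in the order untreated, mutated PNA, anti-MYCN PNA unless named, and differences are on the log2 scale.

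In initiation, the EIF2 complex carries the initiator tRNA and is recharged by its exchange factor EIF2B, EIF3 is the large scaffold on the small ribosomal subunit, and the EIF4 proteins recognise the cap and unwind the leader of the message. EIF1 and EIF1A guard the choice of start codon, EIF5 and EIF5B lead to joining of the large subunit, and the EEF proteins then deliver aminoacyl-tRNA and move the ribosome. MYC-family factors are known to activate genes of this machinery, EIF4E among them, and growth of many tumours depends on it.

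The 3 arrays had been scaled to a common 2% trimmed mean of 500.2. MYCN itself, by its probe set of highest signal, read 3313 (untreated), 2804 (mutated PNA) and 2202 (anti-MYCN PNA), or 66.5% and 78.6% of the controls. Its log2 difference to mutated PNA was −0.35, and the controls were within 0.37 of each other for 95% of genes of like signal. For MYCN itself mutated PNA minus untreated was −0.24. The other MYCN probe sets were dim, at 55.3, 29.8 and 17.4 and at 8.2, 9 and 11.3 in the same order. The bacterial poly-A spikes read lower under anti-MYCN PNA in 24 of 24 probe sets, with median ratios of 0.382 to mutated PNA and 0.410 to untreated, and the part of this in the differences below was not tested. Of 8 myoblast and rhabdomyosarcoma markers 6 passed the filter, MYF5 and MYF6 being dim on all arrays, with summed signals of 16285 (untreated), 14078 (mutated PNA) and 18187 (anti-MYCN PNA). Of the epithelial markers 1 of 5 passed, of the endothelial 1 of 5, and of the leukocyte markers none of the 3 on the array; the epithelial sums were 800.1 (untreated), 502 (mutated PNA) and 598 (anti-MYCN PNA). The endothelial sum was highest on the anti-MYCN PNA array, at 561 against 254 for untreated and 252 for mutated PNA, mostly from ENG at 458 against 205 and 196. The leukocyte sum, of probe sets under the filter, was also highest there, at 117 against 78.4 and 32.4, and the part of these marker signals in the differences below was not tested.

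The MYC-MAX heterodimer is known to bind the E-box CACGTG, and since the PNA was aimed at MYCN the E-boxes in the promoters of the factors are shown here, from RefSeq promoters of GRCh38.p14. Of the 45 genes 35 had a promoter there, 32 of them among the 41 measured. CACGTG, which reads the same on both strands, occurred in the 250 bases before an annotated start in 9 of the 32 genes, against 12.2% of 5688 compared genes and 7.73% of 27305 genes in the table. It occurred in 5 of the 8 EIF4 genes, in 2 of 7 EIF3 genes, and in EIF2B3 and EIF1B. The EIF4 and EIF3 windows are given 5′ to 3′ on the gene's strand, up to 30 bases to each side, with the E-boxes in capitals. The EIF4E window lies at chr4:98929170-98929383 on the minus strand and holds 2 E-boxes, which begin 225 and 72 bases before the start. The EIF4G1 window, chr3:184314432-184314574 on the plus strand, also holds 2, at 144 and 67 bases. The other windows hold 1 each and lie at chr7:74174127-74174192 on the plus strand for EIF4H, chr12:53006404-53006455 on the plus strand for EIF4B, chr17:80147214-80147279 on the minus strand for EIF4A3, chr11:7987239-7987304 on the plus strand for EIF3F and chr19:38619055-38619120 on the plus strand for EIF3K.
EIF4E: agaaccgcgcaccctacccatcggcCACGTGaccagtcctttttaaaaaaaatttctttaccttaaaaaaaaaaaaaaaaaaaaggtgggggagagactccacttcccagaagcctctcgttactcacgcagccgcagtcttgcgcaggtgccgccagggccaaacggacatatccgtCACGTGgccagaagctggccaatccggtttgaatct
EIF4G1: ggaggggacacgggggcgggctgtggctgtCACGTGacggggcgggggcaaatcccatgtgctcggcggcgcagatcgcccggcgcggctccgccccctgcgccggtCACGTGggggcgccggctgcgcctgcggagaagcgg
EIF4H: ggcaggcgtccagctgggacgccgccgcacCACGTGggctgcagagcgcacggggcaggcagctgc
EIF4B: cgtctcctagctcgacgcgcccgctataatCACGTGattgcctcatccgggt
EIF4A3: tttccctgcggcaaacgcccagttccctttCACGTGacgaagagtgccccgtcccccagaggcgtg
EIF3F: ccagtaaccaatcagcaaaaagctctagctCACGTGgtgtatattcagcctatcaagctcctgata
EIF3K: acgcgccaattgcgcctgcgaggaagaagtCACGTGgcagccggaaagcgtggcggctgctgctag

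A match to these letters is a description of the window and not a bound site. The 9 factors with an E-box had a median log2 difference of 0.27 between anti-MYCN PNA and the control mean, and the other 23 had −0.065. EIF4 genes, the group with the highest median difference to the control mean, make up 5 of the 9. Over all compared genes the medians were 0.06 with and 0.06 without the E-box. Of the 9, EIF3F, EIF3K, EIF4A3, EIF4B and EIF4H lay above both controls, 5 of 9 against 47.9% of all genes, EIF4E and EIF2B3 lay below both, and EIF4G1 and EIF1B lay between the controls. The EIF4E promoter, which holds 2 E-boxes, belongs to the gene furthest below the control mean, and EIF4H, with 1, to the one furthest above in the EIF4 group.

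A further promoter feature of this machinery is the 5′ terminal oligopyrimidine tract, a C at the start of the transcript followed by a run of C or T, through which mTOR is known to control translation of the message. An annotated start with C followed by at least 4 bases of C or T occurred in 9 of the 32 matched factors, against 8.03% of compared genes and 5.14% of all genes in the table. They were EEF1A1, EEF2, EIF2D, EIF2S3, EIF3D, EIF3F, EIF3K, EIF3M and EIF4B. EIF3F, EIF3K and EIF4B also hold an E-box, so the sets with either feature share genes. Of these, 6 lay above both controls, against 47.9% of all genes, and EIF2D, EIF2S3 and EIF3M lay below. The median was 0.16 over the 9 and −0.065 over the 23 factors that lack the feature, against 0.13 and 0.05 for the compared genes with and without it. An annotated start can differ from the start used in these cells.

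The factors as a whole lay near all genes, and members of the same complex lay on opposite sides of the controls. On the anti-MYCN PNA array 19 of the 41 factors were above both controls, where 47.9% of all genes were, 15 were below both, against 37.6%, and 7 lay between them, against 14.6%. Both comparisons share the anti-MYCN PNA array. None of the 41 was at least 1.5-fold above both controls, against 8.27% of all genes, and EIF1AX and EIF4E, 2 of 41, were at least 1.5-fold below both, against 7.37%. None was 2-fold away in either direction, against 1.16% of genes above and 1.26% below, and at 1.3-fold EEF1AKMT3 and EIF1 were above, 2 of 41 against 18.6%, and EIF1AX, EIF3M and EIF4E below, 3 of 41 against 14.4%. Against mutated PNA alone 0 factors were 1.5-fold higher, where 13.1% of genes were, and 3 were lower, where 10.7% were. Against untreated alone EIF1 was 1.5-fold higher, where 13.1% of genes were, and 3 factors were lower, where 10.4% were. Between the controls 15 factors read higher in mutated PNA, against 50.2% of genes, and 26 lower, against 49.8%; EIF1B was 1.5-fold higher, against 2.40%, and none 1.5-fold lower, against 2.27%. The controls were apart by 1.3-fold for 3 factors, against 13.6% of genes, and by 2-fold for none, against 0.741%. Most factors are strongly expressed, and the controls lay close together at such signals: when the genes were put into 10 bins by signal, the controls were within 0.28 of each other for 95% of the brightest bin, which holds 22 of the 41 factors. By a second measure, a gene counts as apart when it differs from both controls by more than the value within which the controls lay for 95% of genes of like signal. EEF1A1, EEF1AKMT3, EIF1, EIF3F, EIF3K and EIF4H were above by that measure, 6 of 41 or 14.6% against 11.0% of all genes, and EIF1AX, EIF3A, EIF3M and EIF4E below, 4 of 41 or 9.76% against 10.6%. Neither share stood far from that of all genes.

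**Figure D1:**
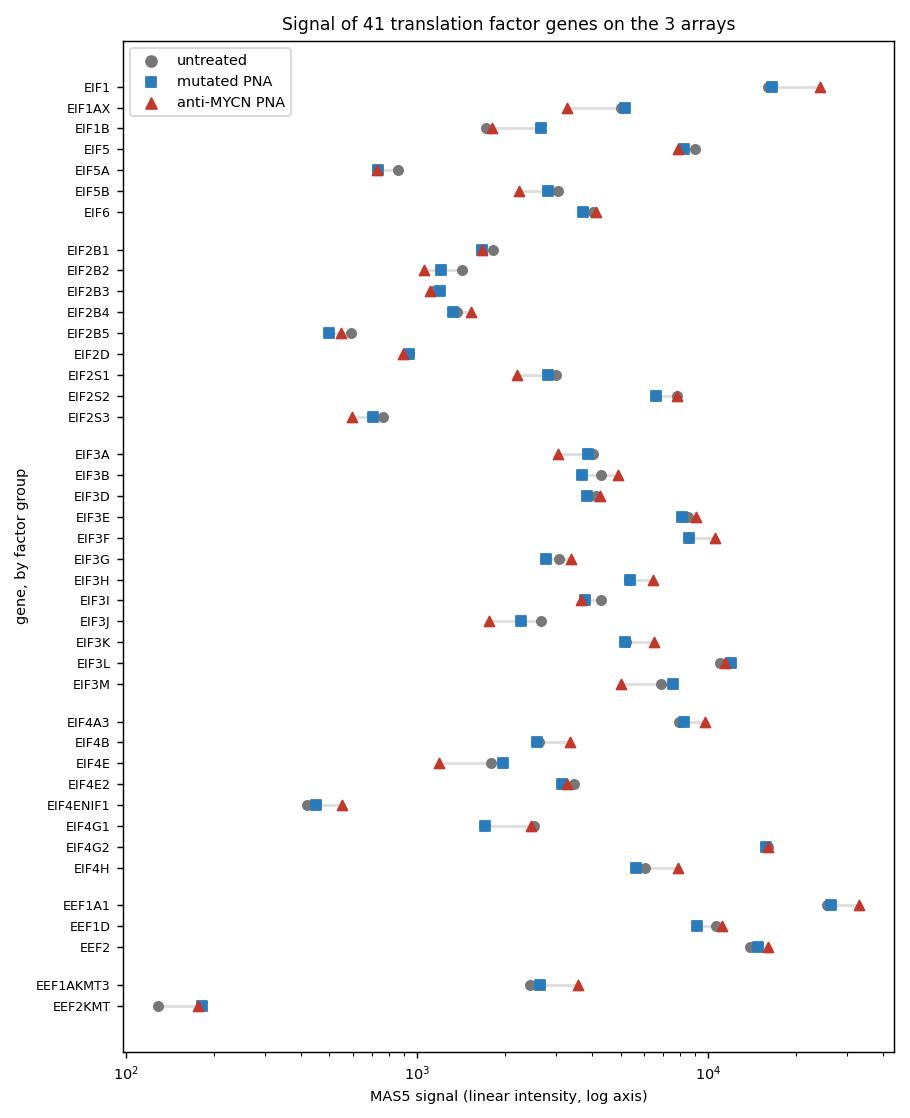
Signal of the 41 measured factor genes on the untreated (circle), mutated PNA (square) and anti-MYCN PNA (triangle) arrays, by factor group, as linear MAS5 intensity on a log axis; the level of one gene cannot be set against that of another. The controls lie close together for most genes, and the anti-MYCN PNA signal is to the left of both for EIF1AX, EIF3M and EIF4E and to the right of both for EIF1 and EIF4H.

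Of the guards of the start codon, EIF1 and EIF1AX went opposite ways. EIF1, which keeps the scanning ribosome open until a start codon is met, read 16105 (untreated), 16632 (mutated PNA) and 24189 (anti-MYCN PNA). The controls lay close together and the anti-MYCN PNA array stood above them at 150% of untreated and 145% of mutated PNA, the largest difference to the nearer control upward among the 41 (0.54 on the log2 scale). Under quantile normalization this difference was 0.12. EIF1AX, the X-linked gene for the partner protein EIF1A, read 5009 (untreated), 5199 (mutated PNA) and 3271 (anti-MYCN PNA). It was thus at 65.3% and 62.9% of the controls, a difference of −0.61 to the nearer, where the controls were within 0.28 for 95% of genes of like signal. All 4 kept probe sets of EIF1AX were below both controls, by −0.54 to −0.82, and all 5 kept probe sets of EIF1 were above both, by 0.54 to 0.67. Of the EIF1 probe sets 4 end in _x_at, a mark of probes shared with further transcripts, and probe sets of a gene are no replicates of the condition.

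EIF1B, a close relative of EIF1, was the only factor at least 1.5-fold apart between the controls, where 4.67% of all genes were. It read 1727 (untreated), 2672 (mutated PNA) and 1810 (anti-MYCN PNA), so the mutated PNA array stood alone and the anti-MYCN PNA array lay next to untreated. Its mutated PNA signal was 155% of untreated, a direction that depends on the disputed untreated label.

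Factors of subunit joining and its control lay below or near the controls. EIF5B, the GTPase that joins the subunits, read 3039 (untreated), 2827 (mutated PNA) and 2248 (anti-MYCN PNA) by its probe set of highest signal, an _x_at one, at 74.0% and 79.5% of the controls. The other 4 kept probe sets were also below both controls, and one of them read 556 (untreated), 584 (mutated PNA) and 239 (anti-MYCN PNA). The smaller difference ran from −0.09 to −1.22 over the 5, so the size for EIF5B depends on the probe set although the direction did not, and the median over probe sets placed it 1.5-fold below both at −0.94. EIF5, which triggers GTP hydrolysis on EIF2, read 9040.2, 8268 and 7909 in the same order, and its 5 probe sets did not share a direction: 1 was above both controls, 2 were below and 2 lay between. EIF5A, the factor that carries the modified residue hypusine and helps the ribosome past difficult peptide bonds, read 858, 733 and 728, with anti-MYCN PNA at 99.2% of mutated PNA. EIF6, which keeps the large subunit from joining too early, read 4008, 3712 and 4120, above the nearer control by 0.04, a direction that turned under median scaling (−0.03).

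Of the 9 EIF2, EIF2B and EIF2D genes 6 lay below both controls, against 37.6% of all genes, and 2 above, against 47.9%. The median log2 difference of the 9 to the control mean was −0.066, against 0.06 for all genes. Between the controls their median was −0.12, further from 0 than that. Of the 9, 8 read lower in mutated PNA than in untreated, against 49.8% of all genes. EIF2S1, the alpha subunit whose phosphorylation slows initiation under stress, read 3006 (untreated), 2811 (mutated PNA) and 2198 (anti-MYCN PNA), 73.1% and 78.2% of the controls. All 3 of its probe sets lay below both controls, by −0.16 to −0.35. The difference to the nearer control is thus under 0.37, the value within which the controls lay for 95% of genes with a signal like that of EIF2S1. EIF2S3, the GTP-binding gamma subunit, read 763, 703 and 597, and EIF2S2, the beta subunit, read 7797, 6627 and 7830.3, equal to untreated within 0.01 on the log2 scale. The subunits of the trimer thus did not lie on the same side: 2 read lower than both controls and the beta subunit lay at the level of untreated.

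The exchange factor EIF2B was measured by all 5 subunit genes. EIF2B2, of the regulatory part, read 1431 (untreated), 1207 (mutated PNA) and 1053 (anti-MYCN PNA), lowest of the 3 arrays but only 0.20 below mutated PNA. EIF2B4, also of the regulatory part, was highest on the anti-MYCN PNA array at 1526 against 1375 and 1332, a difference of 0.15 that was lost under median scaling, where it lay between the controls. EIF2B1 and EIF2B3 lay within 0.04 of the nearer control and EIF2B5, the catalytic subunit, lay between the controls at 546 against 592 and 496. EIF2D, which can deliver initiator tRNA without EIF2, read 939, 938 and 897. None of the 6 differed from both controls by more than the controls' spread at like signal.

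EIF3 had subunits on both sides of the controls in shares near those of all genes. Of 12 measured subunit genes 7 were above both controls, or 58.3% against 47.9% of all genes, 4 were below, or 33.3% against 37.6%, and EIF3L lay between, with a median of 0.11. EIF3F read 8593 (untreated), 8596 (mutated PNA) and 10594 (anti-MYCN PNA), so that nearly equal controls were set against an array 123% as bright. EIF3K read 5221, 5169 and 6494 by an _x_at probe set, and EIF3H 5365, 5389 and 6457. Of the 3 kept EIF3K probe sets 2 were above both controls, and the last, at 4732, 5006 and 4911, lay between them. Without _x_at and _s_at probe sets EIF3F and EIF3K had no value. EIF3F, EIF3K and EIF3H belong to the structural core of the complex, and each lay above both controls under each setting with a value: by 0.10 to 0.30 for EIF3F, by 0.12 to 0.32 for EIF3K and by 0.07 to 0.26 for EIF3H. EIF3E, of the same core, and EIF3B, EIF3D and EIF3G, of the periphery, lay above the nearer control by 0.05 to 0.19. EIF3B read 4279, 3699 and 4883 with an _x_at probe set, and under median scaling EIF3D and EIF3E turned below both controls, by −0.02 each, and EIF3B and EIF3G lay between them.

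The subunits on the lower side were EIF3M, EIF3J, EIF3A and EIF3I. EIF3M, a core subunit, read 6898 (untreated), 7596 (mutated PNA) and 5030.5 (anti-MYCN PNA), 72.9% and 66.2% of the controls. It was 1.5-fold below mutated PNA, as 10.7% of all genes were, but not below untreated. EIF3J, a loosely bound subunit that helps the ribosome release its message, read 2670.1, 2275 and 1771, 1.5-fold below untreated, as 10.4% of genes were, but not below mutated PNA. EIF3A, the largest subunit and scaffold of the core, read 4013, 3878 and 3059, and its 3 probe sets were below both controls by −0.03 to −0.34. For EIF3M and EIF3J both probe sets kept were below both controls. EIF3I read 4280, 3777 and 3660.3, only 0.05 below mutated PNA. EIF3L was flat, at 11026 (untreated), 11982 (mutated PNA) and 11454 (anti-MYCN PNA).

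**Figure D2:**
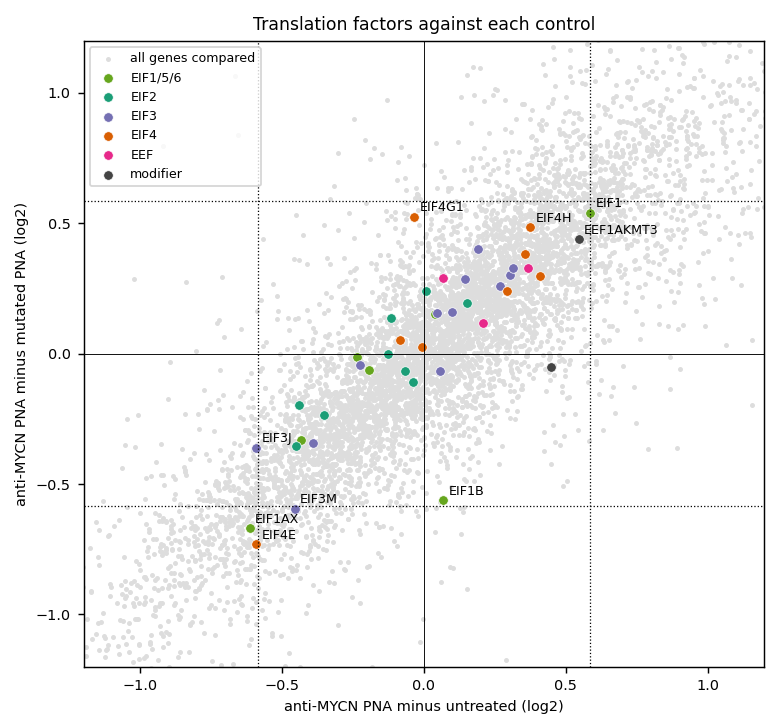
Log2 difference of the anti-MYCN PNA array to untreated (x) and to mutated PNA (y) for the 41 factors, coloured by group, over all compared genes in grey; dotted lines mark 1.5-fold and the axes are cut at 1.2. The axes share the anti-MYCN PNA array, so the slope is no result. EIF1AX and EIF4E lie past both lower lines, and EIF1B and EIF4G1 lie off the diagonal because the controls differ for them.

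Among the EIF4 proteins the cap-binding factor stood apart from the helicase cofactors. EIF4E, which binds the cap and is the limiting and oncogenic member of the complex, read 1788 (untreated), 1972 (mutated PNA) and 1187 (anti-MYCN PNA). The anti-MYCN PNA array was the lowest of the 3, at 66.4% and 60.2% of the controls, while mutated PNA stood at 110% of untreated. The log2 differences were −0.59 and −0.73, both larger than 0.42, within which the controls lay for 95% of genes of like signal. A second probe set read 1196, 1312 and 466, which is −1.36 to the nearer control, and the remaining one read 187, 299 and 140, which is −0.42. All 3 lay below both controls, with sizes that differed widely. EIF4E stayed below both controls under the 10 alternatives, by −0.42 to −1.36, but on the near side of 1.5-fold under quantile normalization (−0.54) and 3 others.

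The helicase partners and the related factors lay higher. EIF4H, which stimulates the EIF4A helicase, read 6081 (untreated), 5636 (mutated PNA) and 7886 (anti-MYCN PNA), 130% and 140% of the controls. EIF4B, the other stimulator, read 2627, 2582 and 3365, or 128% and 130%, by its brightest probe set. A second EIF4B probe set was above both controls too, and the last, at 754, 768 and 587, below both. EIF4A3, the helicase of the exon junction complex, read 7951, 8252 and 9739, and EIF4ENIF1, which carries EIF4E into the nucleus and to P-bodies, 418, 450.1 and 554. These 4 genes lay above both controls under each setting with a value, with differences of at least 0.06 to the nearer control.

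The scaffolds of the cap complex did not stand apart from the controls. EIF4G1, which joins EIF4E, EIF4A and EIF3, read 2524 (untreated), 1711 (mutated PNA) and 2463 (anti-MYCN PNA), so mutated PNA was the odd array at 67.8% of untreated. It was, with EIF1B, 1 of 2 factors for which the controls differed by more than in 95% of genes of like signal, against 5.04% of all genes. EIF4G2, a related protein that works without cap binding, was flat at 16083, 15747 and 16018. EIF4E2, a weak cap-binding relative with a role in repression, read 3460.0, 3146 and 3267, within the controls, and of its 3 probe sets 2 lay between the controls and 1 lay 0.30 above both.

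By their brightest probe sets all 3 measured elongation factors were highest on the anti-MYCN PNA array, a direction that depended on the scaling. EEF1A1, which brings aminoacyl-tRNA to the ribosome, read 25653 (untreated), 26347 (mutated PNA) and 33085 (anti-MYCN PNA), 129% and 126% of the controls. All 4 of its probe sets were above both controls, by 0.27 to 0.39, and all are _x_at, in a gene with many processed copies in the genome, so its own level is uncertain. EEF2, the translocase, read 13958, 14861 and 16113, and EEF1D, an exchange factor subunit for EEF1A, read 10640, 9126 and 11147. Other EEF1D probe sets, under the filter, read 127, 131 and 51.4 and 108, 112 and 10.9, lower than both controls. Under quantile normalization EEF1A1 lay below both controls by −0.15 and EEF2 by −0.01, and EEF1D lay between them. Under median scaling EEF2 and EEF1D lay between the controls and EEF1A1 above both by 0.15. The median of the group went from 0.18 to −0.062. The brightest signals of the anti-MYCN PNA array are relatively stronger than those of the controls, with a highest gene signal of 50332 against 33282 and 32467, and the part of this in the EEF values was not tested.

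Of the enzymes that modify elongation factors, EEF1AKMT3, a lysine methyltransferase of EEF1A, read 2449 (untreated), 2636 (mutated PNA) and 3575 (anti-MYCN PNA), 146% and 136% of the controls. It lay above both controls under each setting with a value, by 0.26 to 0.47. In the RefSeq table it lies on chromosome 12 between METTL1 and TSFM and close to CDK4. Of these neighbours CDK4 read 29163, 28081 and 40713, 0.48 above the nearer control, METTL1 lay between the controls and TSFM lay 0.11 above the nearer one. EEF2KMT, which methylates EEF2, read 129, 182 and 176, near the filter of 117.

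The 4 members that did not pass the filter were EEF1A2, EIF5A2, EEF1AKMT2 and EIF1AY. EEF1A2, the muscle and neuronal form of EEF1A, read 54.3, 46.4 and 56.4. EIF5A2, a relative of EIF5A, read 43.2, 68.3 and 20.3, and EEF1AKMT2 read 7.30, 3.40 and 7.40. None of the 4 gives a difference here.

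**Figure D3:**
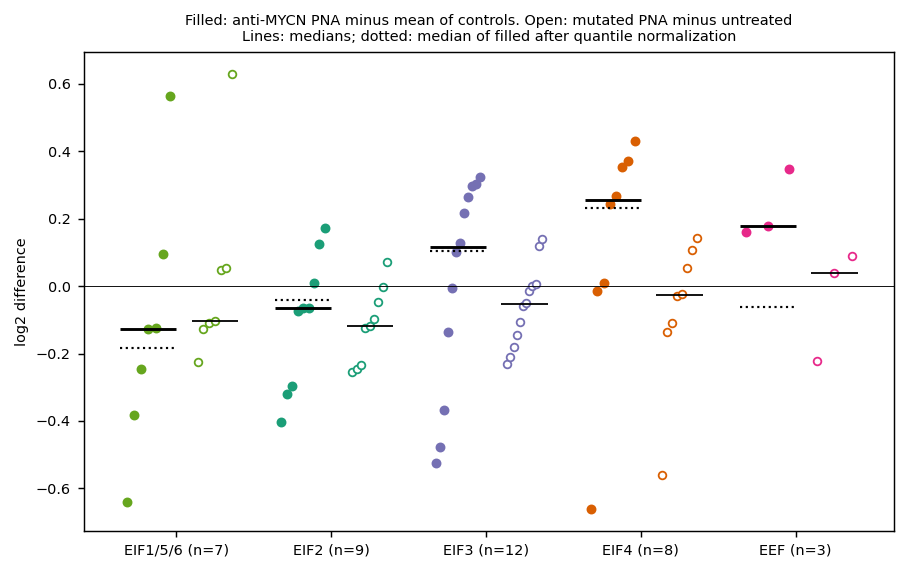
Difference (log2) of anti-MYCN PNA from the control mean (filled) and of mutated PNA to untreated (open) for each factor, by group; solid lines are medians and dotted lines the median of the filled points after quantile normalization. EIF4E lies alone at the bottom of the EIF4 group, and the EEF median turns below 0 after quantile normalization.

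Set side by side, the EIF4 group had the highest median difference to the control mean, 0.26, followed by EEF at 0.18, EIF3 at 0.11, EIF2 at −0.066 and the EIF1, EIF5 and EIF6 genes at −0.13, against 0.06 for all genes and 0.09 for all 41 factors. The groups overlapped widely: EIF4 ran from −0.66 to 0.43, EIF3 from −0.53 to 0.32, EIF2 from −0.40 to 0.17 and the EIF1, EIF5 and EIF6 genes from −0.64 to 0.56, so that no pair of neighbouring groups in that order was separate. Between the controls the medians ran from −0.12 for EIF2 to 0.04 for EEF, with 0.00068 for all genes. Against mutated PNA alone the medians were 0.27 for EIF4, 0.29 for EEF, 0.16 for EIF3, −0.065 for EIF2 and −0.064 for EIF1, EIF5 and EIF6, and against untreated 0.14, 0.21, 0.08, −0.12 and −0.19. EEF thus lay above EIF4 against each control alone, while EIF4 lay above EEF against the control mean. The EIF2 and EIF1, EIF5 and EIF6 medians were below 0 against each control. The EIF3 median was −0.0051 over the 7 genes left without _x_at and _s_at probe sets. Within a bulk culture, fewer cells with a transcript and less of it per cell cannot be told apart.

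Kept probe sets of the same gene shared a side in 11 of 20 cases. Probe sets under the filter are not counted, among them those of EEF1D that read below both controls. Of the 20 factors with more than 1 kept probe set, 4 had all of them above both controls (EEF1A1, EEF1D, EEF2 and EIF1), 7 had all below (EIF1AX, EIF2S1, EIF3A, EIF3J, EIF3M, EIF4E and EIF5B) and 9 were mixed. Of the mixed ones, EIF4B, EIF5 and EIF5A had at least 1 probe set above and 1 below both controls.

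**Figure D4:**
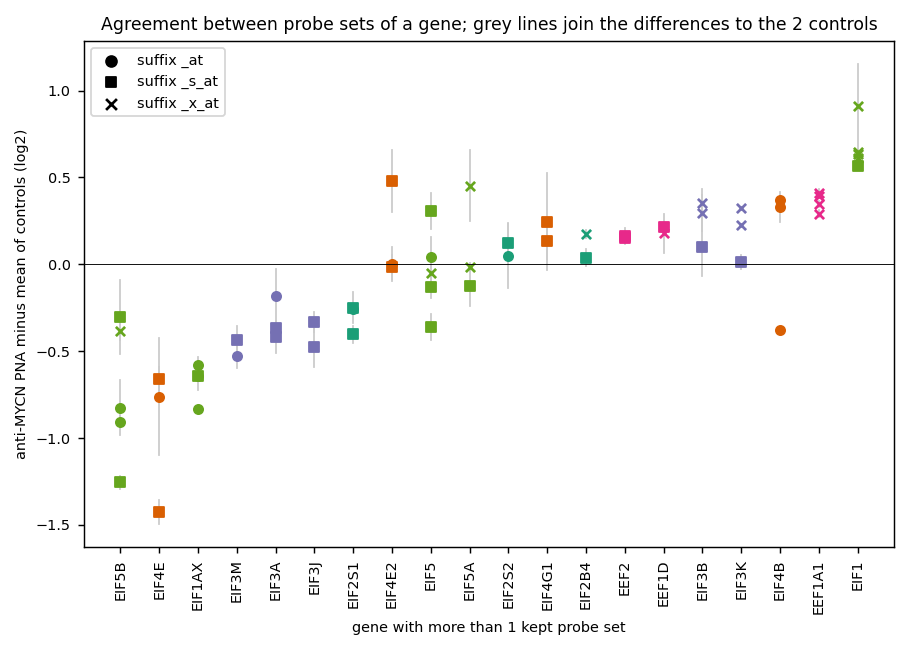
Difference (log2) of anti-MYCN PNA from the control mean for each kept probe set of the 20 factors with more than 1, coloured by group as in the other plots; symbols give the probe set suffix and grey lines join the differences to each control. The probe sets of EIF1AX, EIF4E and EIF5B all lie below 0, those of EIF1 all above, and those of EIF4B, EIF5 and EIF5A on both sides.

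The differences went with the span of the gene on the genome, among all genes and loosely among the factors. Over all compared genes the median difference to the control mean went from 0.23 in the shortest of 5 equal bins of span, up to 10.5 kb, through 0.13, 0.04 and −0.04 to −0.08 in the longest, from 91.4 kb, while the medians between the controls stayed from −0.01 to 0.01. Spearman's rho was −0.24 over 6743 genes and −0.19 over the 41 factors; these are correlations across genes of the same arrays, which are no independent replicates. By the same bins the medians of the factors were 0.16, 0.14, −0.014, −0.37 and 0.095, which do not step down throughout. EIF1 spans 3.78 kb and EEF1A1 5.28 kb, EIF4E 49.9 kb and EIF5B 63.9 kb. But EIF1AX, at 17.3 kb, and EIF4H, at 22.7 kb, are alike in span and went opposite ways. The longest bin holds 2 factors, EIF3H at 124 kb and EIF2B3 at 136 kb, which lay at 0.26 and −0.07 to the control mean. Centred on the median of genes in the same bin, the EIF4 median was 0.13 and the EIF3 median was −0.017.

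**Figure D5:**
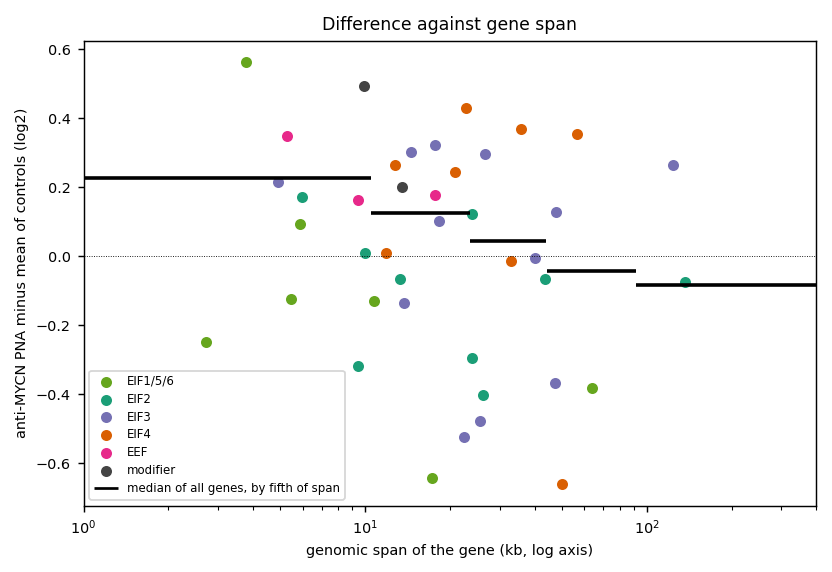
Difference (log2) of anti-MYCN PNA from the control mean for the 41 factors against genomic span in kb (log axis); black bars give the median of all compared genes in each of 5 bins of span. The bars step down from 0.23 to −0.08, and the factors scatter widely about them.

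Other genes of translation control were described from a list of 44 that holds no member, 32 of them measured. Of the 32, 14 lay above both controls, against 47.9% of all genes, and 15 below both, against 37.6%, with a median of −0.021. At least 1.5-fold above both was 1 of 32, against 8.27% of all genes, and at least 1.5-fold below both were 2 of 32, against 7.37%. PPP1R15A, the phosphatase subunit that reverses phosphorylation of EIF2S1, read 182 (untreated), 224 (mutated PNA) and 481 (anti-MYCN PNA). ABCE1, which splits ribosomes after termination, read 2639.9, 2404 and 1472, and EIF2AK3, the stress kinase PERK that phosphorylates EIF2S1, read 519, 586 and 341. PPP1R15A is the gene 1.5-fold above both controls, and ABCE1 and EIF2AK3 are those 1.5-fold below. RPS6KB2, a kinase downstream of mTOR, came next at 187, 202 and 301, which is 0.57 above the nearer control.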

How the data were processed

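Per the labels' protocols, biotin-labelled one-cycle targets were made from TRIzol-extracted total RNA. The authors deposited 1 linear intensity for each probe set and array, for which MAS5 and GCOS are named in the submitters' processing notes; other settings are not given in the sources used here. MAS5 joins perfect match and mismatch probes and scales each array by 1 factor, so a difference in the shape of the distributions is kept.

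Of 22277 probe sets 62 were controls. GEO's platform annotation named 1 gene for 19064 of the rest, several for 1043 and none for 2108, and 19052 had an Entrez identifier in the RefSeq table of GRCh38.p14. Arrays were scaled to 1 common 2% trimmed mean. The 25th percentile over all arrays, 23.4, served as a floor, and a probe set entered if its mean over the arrays reached the 50th, 117. Of several probe sets the brightest stood for its gene. The difference to both controls is the smaller of the 2 log2 differences where they share a sign, and 0 otherwise. With 1 array per condition there was no test; precision is limited by the number of arrays. The calls were run on simulated data with added changes larger than the difference of any factor. That run cannot show how well calls near 1.5-fold hold.

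Named genes follow a rule: all members may be named, with values on every array for those 1.5-fold from both controls, the extremes of each group and a list of core factors. Other members were given the same way. Enzymes that modify elongation factors were kept out of the EEF group. EIF1AY is counted without values. The members and lists were chosen with earlier results of these data known. Scaling, filter, floor, pseudocount, threshold, probe set choice and control were varied. The versions were matplotlib 3.10.9, pandas 2.3.3, numpy 2.4.6 and Python 3.11.15.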

Additional observations from a re-analysis of the deposited data

How the results depend on the processing

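Each array being alone in its condition, no replicate could be left out, and no spread other than that between the 2 controls was available. No paired analysis was possible because each group has 1 array. Of 391 member values under alternatives 380 stayed on the same side of 1.5-fold, 7 lost it and 4 gained it. All 7 losses were of EIF1AX and EIF4E, the only factors 1.5-fold from both controls. The other factors had no such call to lose, so the 380 says little about how well calls hold. In all settings that gave a value, 9 factors stayed above and 12 below both controls. Median scaling moved the median of all genes by −0.19, from 0.06 to −0.13, and with it the group medians: EIF2 to −0.26, EIF3 to −0.074, EEF to −0.011, EIF4 from 0.26 to 0.066, EIF1, EIF5 and EIF6 from −0.13 to −0.32, and all factors to −0.094. Under quantile normalization the medians were −0.062 for EEF and −0.0069 for all factors. Centring within bins of signal gave −0.018 for all factors. Without _x_at and _s_at probe sets, which leaves fewer genes, they were −0.0051 for EIF3, 0.14 for EIF4, −0.45 for EIF1, EIF5 and EIF6 and −0.035 for all factors, and EEF had no gene left. Centring within bins of gene span, added after seeing the data, gave −0.19 for EIF2, −0.017 for EIF3, 0.13 for EIF4, −0.34 for EIF1, EIF5 and EIF6 and −0.053 for all factors.

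The count of factors 1.5-fold above both controls was 0, and 1 without the filter and with the median over probe sets, and 2 at 1.3-fold. The count below both was 2, and 0 under quantile normalization and at 2-fold, and 1 when centred within bins of signal or of gene span, with a pseudocount of 16, and without _x_at and _s_at probe sets, but 3 under median scaling, with no filter and at 1.3-fold. EIF1AX and EIF4E lie close to the threshold. The count apart between the controls was 1, and 2 without the filter and without _x_at and _s_at probe sets, 3 at 1.3-fold and 0 at 2-fold. Beyond the construction of each alternative, the cause was not tested.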

Other observations

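Further factors are represented by 11 probe sets that also name small nucleolar RNA, microRNA, read-through or copy genes, and so stand outside the rule. The 3 that name EEF1G, a subunit of the EEF1A exchange factor, lay above both controls by 0.40 to 0.53, reading for instance 16572 (untreated), 16537 (mutated PNA) and 23993 (anti-MYCN PNA). The EEF1B2 probe set lay 0.07 above the nearer control. Of the 3 that name EIF3C and its copy EIF3CL, 2 lay above both controls by 0.27 and 0.34 and 1 lay below by −0.37, at 7866 (untreated), 8510.4 (mutated PNA) and 6093 (anti-MYCN PNA).

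The helicases that EIF4B and EIF4H stimulate are also among them. The 3 probe sets that name EIF4A1 lay above the nearer control by 0.29, 0.0039 and 0.00095, the first reading 11969 (untreated), 10289 (mutated PNA) and 14666 (anti-MYCN PNA). The probe set for EIF4A2 read 5480 (untreated), 5881 (mutated PNA) and 5235 (anti-MYCN PNA), 0.07 below the nearer control on the log2 scale. In each case the share of the signal that belongs to the factor is unknown.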
